A study of Bos taurus with 48 samples.

Results

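The leukocyte transcriptome of weaned calves on d 7 was compared with that on d 1, to describe which differences of the first day after weaning had subsided a week later and which were still present. The comparison consists of the 12 libraries labelled as d 1 and d 7 of the 6 weaned calves numbered 1758, 1762, 1769, 1770, 1773 and 1809, chosen by their labels out of the 48 libraries of the series. Total leukocytes were taken from male beef calves of a Continental breed (Simmental), which had been vaccinated against respiratory viruses beforehand. On d 0 the weaned calves were moved indoors, separated from the dam at the same time and penned with other weaned calves, a change of social group. The control calves (6 calves, 12 libraries on the same days) moved indoors together with the dam and stayed unweaned. The move indoors was thus common to both treatments, but the company in the pen was not. All libraries of d 0 were made from blood drawn before housing. Every calf gave 1 library a day, so calves are the replicates, and the cell types of the blood were not separated.

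Leukocytes of blood are a mixture of neutrophils, lymphocytes, monocytes and a few eosinophils and basophils, and platelets and immature red cells can be carried over in their preparation. Cortisol, a hormone of the stress response, acts on these cells directly through the glucocorticoid receptor and also moves leukocytes between blood and tissues. In bulk RNA of this kind, fewer cells of a type and less RNA per cell cannot be told apart.

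No gene passed the test between d 7 and d 1 in weaned calves, and the values below describe levels in 6 calves a day. The levels of THBS1, GFPT2, CCL24, TLR7 and IL5RA were higher on d 1 than on d 0 and on d 7 lay near that of d 0 again. DAB2, LIPG and CCL22 had lower medians on d 7 than on either earlier day, and DAB2 was lower on d 7 than on d 1 in 6 of 6 calves. FOS, RGS2 and ABCA1 had d 7 medians close to those of d 1 and above those of d 0. The d 1 library of calf 1769 was the highest of its day for PPBP, SELP, ALAS2, HBB and the collagens, and without this calf their log2 changes were closer to 0.

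Total counts per library were 3471102 to 4013635 on d 1 and 3218300 to 3888375 on d 7, and the detection limit used here, 3 counts in a library, equals 0.711 to 0.942 CPM (counts relative to the library total, scaled by the TMM factor of edgeR). That limit covers counting error only. Libraries of the same day differed by 3.81 to 32.8 times the counting noise on d 1 and by 2.79 to 57.9 times on d 7 (chi-square divided by its degrees of freedom, over 15 pairs a day). The first component of the deviations from the day means held 70.2% of their variance over 8236 genes, with the d 1 library of calf 1773 (0.50) and the d 7 library of calf 1758 (0.62) at one end and both libraries of calf 1809 (-0.30 on d 1, -0.58 on d 7) at the other. Genes with at least 1 count numbered 14950 and 14677 in the libraries at the first end and 13692 in that of calf 1809 on d 7. The part of this component in the results was not tested beyond the fits that include it as a covariate or leave out these 3 calves.

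The calf labels of 2 libraries went against the data. Over 100 genes that differ between calves, each of the 12 d 1 libraries correlated best with the other days of its own calf (0.744 to 0.976), and so did 10 of the 12 on d 7 (0.625 to 0.939). The d 7 library labelled 1758 had a correlation of 0.300 with its own calf and 0.697 with calf 1770, and that labelled 1770 had 0.237 with its own and 0.565 with calf 1758. ULBP3, a ligand of an activating receptor of natural killer cells, gives an example: ENSBTAG00000038891 lay at 13.5, 14.2 and 16.5 CPM in calf 1770 on d 0, 1 and 2 and at 0 CPM in calf 1758 on the same days, but on d 7 at 8.61 CPM in the library labelled 1770 and 12.6 CPM in the library labelled 1758. The other ULBP3 identifier, ENSBTAG00000018439, had 0 counts in calf 1758 on d 0, 1 and 2 and 16 on d 7. Calf 1770 had 5, 9, 8 and 6 counts on d 0, 1, 2 and 7 by the labels. Whether the 2 samples were exchanged or mixed was not tested, and the labels were kept as given. Both libraries are of weaned calves on d 7, so a comparison of the days without pairing does not depend on which is which. It does assume that they are 2 independent calves, which a mixture would break. Each count of calves below, each fit with calf as a block or term and each permutation of signs within calves depends on the labels.

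**Figure D1:**
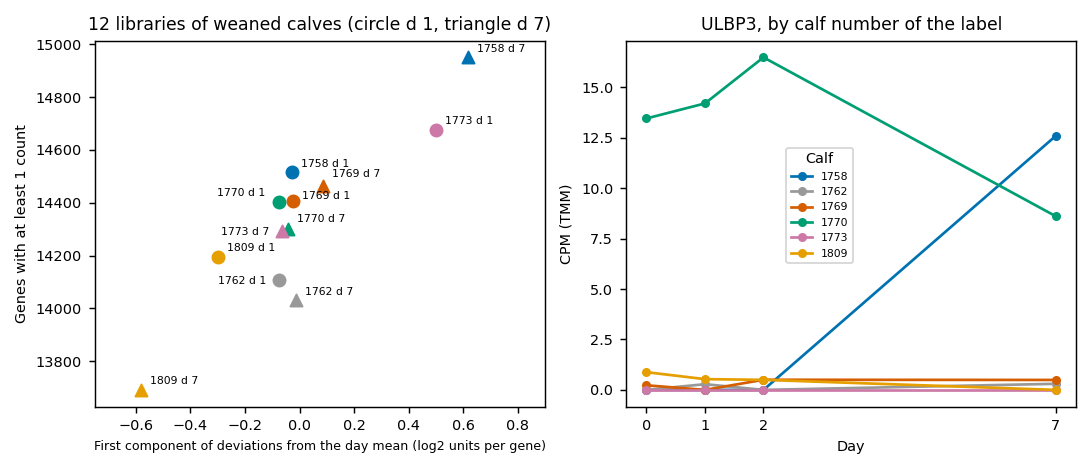
Left: position of each of the 12 libraries of weaned calves on the first component of the deviations from the day mean (x axis, log2 units per gene) against the number of genes with at least 1 count (y axis), with circles for d 1, triangles for d 7 and 1 colour per calf. The d 7 library of calf 1758 (0.62, 14950 genes) and the d 7 library of calf 1809 (-0.58, 13692 genes) lie at opposite ends. Right: CPM of ULBP3 (ENSBTAG00000038891) on d 0, 1, 2 and 7, 1 line per calf number of the label. Only calf 1770 has a level above 1 CPM up to d 2, and on d 7 both calf 1770 (8.61 CPM) and calf 1758 (12.6 CPM) do.

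Of 14152 genes in the quasi-likelihood F-test of edgeR, 0 had a Benjamini-Hochberg adjusted p under 0.05 (0% of the genes tested), and the smallest adjusted p was 1.00. Without adjustment, 146 genes (1.03%) reached 0.05, of which 66 were higher (0.466%) and 80 lower (0.565%) on d 7, and 80 of the 146 differed by at least 2-fold. DESeq2 also called 0 genes and had 145 at an unadjusted p under 0.05. A fit with calf as a block called 0 genes, with 278 reaching 0.05 unadjusted (184 of them higher). Without calves 1758 and 1770, whose pairing is doubted, the block had 2115 (763 of them higher, smallest adjusted p 0.294) and again called 0. In 2 genes all libraries of d 7 lay above all of d 1 (0.0141% of the genes tested) and in 5 genes below (0.0353%), and 143 genes (1.01%) were higher and 120 (0.848%) lower in 6 of 6 calves. The median log2 change over all genes tested was 0.02.

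Symbols were at hand for 643 genes, all of which the study had selected as differing in one or another comparison of these libraries, so their counts are not independent evidence of a direction. Of these, 605 had enough counts to be tested. Of those, 19 (3.14%) reached 0.05 unadjusted, 2 higher and 17 lower on d 7, against 1.03% over all genes. The day groups overlapped in every one of the 605 genes, 2 were higher and 5 lower in 6 of 6 calves, and their median log2 change was -0.10.

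THBS1 (ENSBTAG00000002006) encodes thrombospondin 1, an adhesive glycoprotein that platelets and monocytes release. On d 1 it lay at 71.9 to 240.5 CPM (median 195) and on d 7 at 48.8 to 144 CPM (median 119.7), lower in 6 of 6 calves. The log2 change was -0.75 ± 0.32 (SE, P = 0.0320 by edgeR, adjusted P = 1.00, exact permutation P = 0.0758). The groups overlapped through calves 1762 and 1769 on d 1, and 4 of the 6 d 1 libraries were above every d 7 library. Before housing, the median had been 92.9 CPM (57.7 to 137 CPM).

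GFPT2 (ENSBTAG00000002215), an enzyme that opens the hexosamine pathway of glucose use, lay at 1.599 to 11.6 CPM on d 1 (median 2.04) and at 0.268 to 1.73 CPM on d 7 (median 1.01). It was lower on d 7 in 6 of 6 calves, with a log2 change of -1.76 ± 0.58 (SE, P = 0.00875 by edgeR, adjusted P = 1.00, exact permutation P = 0.00649). Of the d 7 libraries, 5 lay below every d 1 library. The highest d 1 value was that of calf 1769, and without this calf the log2 change was -1.16 (exact permutation P = 0.00794). The median on d 0 was 1.08 CPM.

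TLR7 and IL5RA had their highest median on d 1. TLR7 (ENSBTAG00000022161), the endosomal receptor for single-stranded RNA, lay at 86.5 to 267 CPM on d 1 (median 98.3) and at 34.2 to 133 CPM on d 7 (median 78.6), with 77.5 CPM as the median on d 0. Its log2 change was -0.63 ± 0.32 (SE, P = 0.0666 by edgeR, exact permutation P = 0.106). The d 1 library of calf 1773 stood far above the others, 5 of the d 7 libraries were below all of d 1, and the d 7 library labelled 1758 was the exception. IL5RA (ENSBTAG00000000273), the receptor chain that makes eosinophils and basophils responsive to interleukin 5, lay at 8.23 to 33.2 CPM on d 1 (median 12.9) and at 0.314 to 14.2 CPM on d 7 (median 8.55). The log2 change was -0.91 ± 0.56 (SE, P = 0.127 by edgeR, exact permutation P = 0.126), and it was lower in 5 of 6 calves. On d 0 the median was 6.83 CPM.

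Several weakly counted genes followed. For those in which no library of one of the days had more than 3 counts, the summed counts are given in place of a fitted change. CCL24 (ENSBTAG00000026275), a chemokine that attracts eosinophils, had 22 counts over the d 1 libraries and 5 over the d 7 libraries, a ratio of 0.247 (exact 95% interval 0.0731 to 0.669, for counting error only). It had 3 to 5 counts in each of the d 1 libraries and 0 in 3 of the d 7 libraries, with calf 1762 as the exception at 0.910 CPM on d 7 (exact permutation P = 0.00866). SERPINB2 (ENSBTAG00000023026), an inhibitor of plasminogen activators, had 20 counts against 5 (ratio 0.272, interval 0.0797 to 0.746, exact permutation P = 0.0260). GUCY1A3 (ENSBTAG00000014576), a subunit of the nitric oxide receptor guanylate cyclase, lay at 0.568 to 2.06 CPM on d 1 and at 0.247 to 1.21 CPM on d 7, with 29 counts against 10. Its log2 change was -1.31 ± 0.50 (SE, P = 0.0201 by edgeR, exact permutation P = 0.0238), and it was lower in 5 of 6 calves.

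**Figure D2:**
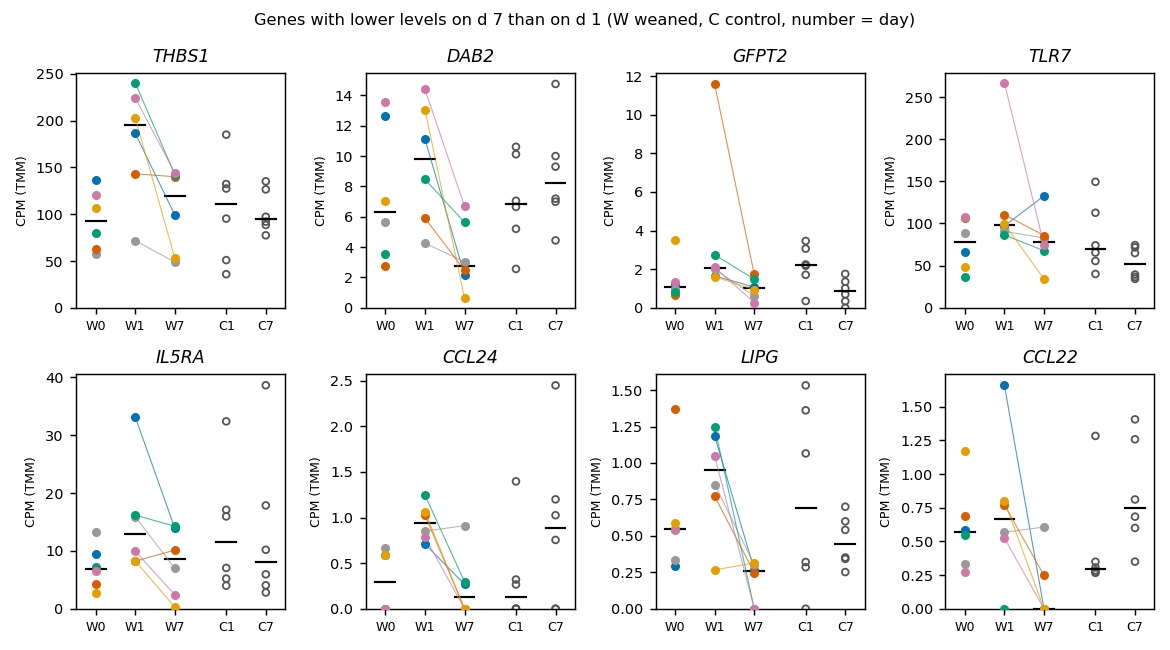
CPM (y axis, scaled by TMM) of 8 genes by library in weaned calves on d 0, 1 and 7 (W0, W1, W7, 1 colour per calf, lines joining equal calf numbers, which are doubted for 1758 and 1770 on d 7) and in control calves on d 1 and 7 (C1, C7, open circles), with horizontal bars at the medians. The d 7 medians of THBS1 (119.7 CPM) and DAB2 (2.75 CPM) lie below those of d 1 (195 and 9.80 CPM), and in all 8 genes the values of d 1 and d 7 overlap.

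For other genes the d 7 level was the lowest of the 3 days. DAB2 (ENSBTAG00000016152), an endocytic adaptor protein found in monocytes, macrophages and platelets, lay at 4.26 to 14.4 CPM on d 1 (median 9.80) and at 0.628 to 6.71 CPM on d 7 (median 2.75). Its log2 change was -1.44 ± 0.44 (SE, P = 0.00578 by edgeR, adjusted P = 1.00, exact permutation P = 0.0130), lower in 6 of 6 calves. Of the d 1 libraries, 4 were above all of d 7, and 4 of the d 7 libraries were below all of d 1. From d 0, with a median of 6.34 CPM, the log2 change to d 7 was -1.12 ± 0.49 (SE, adjusted P = 0.920 by edgeR), a comparison that shares its d 7 libraries with the one above.

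LIPG (ENSBTAG00000032850), an endothelial lipase of high-density lipoproteins, had 21 counts over the d 1 libraries and 4 over the d 7 libraries, a ratio of 0.207 (exact 95% interval 0.0517 to 0.614). No d 7 library had more than 1 count and 2 had 0, whereas 5 of the d 1 libraries had at least 3 (exact permutation P = 0.00866). CCL22 (ENSBTAG00000017718), a chemokine for T cells of the type 2 and regulatory kinds, had 17 counts against 3 (ratio 0.192, interval 0.0360 to 0.663, exact permutation P = 0.0455). Its median was 0.568 CPM on d 0, 0.670 CPM on d 1 and 0 CPM on d 7.

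Several genes of platelets, red cell precursors and connective tissue had their highest d 1 value in the library of calf 1769, although THBS1, also a platelet gene, did not, and its log2 change was -0.90 without this calf. PPBP (ENSBTAG00000032425), the chemokine stored in platelet granules, was at 29.0 CPM in that library and at 7.07 CPM or less in the other d 1 libraries, and the same calf had 5.26 CPM on d 0, 5.54 CPM on d 2 and 2.97 CPM on d 7. The log2 change over all calves was -1.85 ± 0.86 (SE, P = 0.0497 by edgeR, exact permutation P = 0.528), yet the median was 1.78 CPM on d 1 and 1.85 CPM on d 7, and 4 of 6 calves had the higher value on d 7. Without calf 1769 the log2 change was -0.52. SELP (ENSBTAG00000020755), the P-selectin of platelets and endothelium, was at 44.7 CPM in that library and at 9.24 CPM or less in the others, and its log2 change of -0.75 ± 0.48 (SE, exact permutation P = 0.745) became 0.078 without this calf. CXCL5 (ENSBTAG00000009812), a chemokine for neutrophils, had 33 counts on d 1 and 4 on d 7, and 21 of the 33 were in calf 1769.

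ALAS2 (ENSBTAG00000013178), the first enzyme of haem synthesis in red cell precursors, was at 28.5 CPM in the d 1 library of calf 1769 and at 3.998 CPM or less in the other d 1 libraries. On d 7 it lay at 0 to 2.14 CPM (median 1.33, against 2.45 on d 1), with a log2 change of -2.23 ± 0.84 (SE, P = 0.0187 by edgeR, exact permutation P = 0.126) and of -0.71 without this calf. HBB (ENSBTAG00000038748), the β chain of haemoglobin, was at 36.8 CPM in the same library and at 10.2 CPM or less in the others, and its log2 change of -0.90 ± 0.50 (SE, exact permutation P = 0.255) was -0.32 without it. The 2 erythroid markers tested summed to 65.3 CPM in this library, to 12.5 CPM in the next highest of d 1 and to at most 11.1 CPM on d 7.

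The fibrillar collagens had their highest d 1 values in the same library and very different levels between calves on every day. COL1A1 (ENSBTAG00000013103) lay at 0.267 to 101 CPM on d 1 (median 27.3) and at 0 to 27.3 CPM on d 7 (median 4.08), and COL1A2 (ENSBTAG00000013472) at 0.533 to 67.6 CPM (median 12.6) and at 0 to 10.1 CPM (median 1.45). The log2 change was -1.86 ± 1.13 (SE, P = 0.122 by edgeR) for COL1A1, -2.49 ± 1.06 (SE, P = 0.0330 by edgeR, exact permutation P = 0.158) for COL1A2 and -1.74 ± 1.09 (SE, P = 0.130 by edgeR) for COL3A1 (ENSBTAG00000021466). Each was lower on d 7 in 5 of 6 calves. Without calf 1769 the 3 values were -0.93, -1.39 and -0.85. In calf 1769 itself COL1A1 had been at 112 CPM on d 0 and was at 2.27 CPM on d 2 and 0 CPM on d 7, and the d 0 median over calves was 66.6 CPM, so for the collagens d 1 was not the highest day. DCN (ENSBTAG00000003505), decorin, a proteoglycan of collagen fibrils, had 47 counts on d 1, of which 25 were in calf 1769 and 18 in calf 1773, and 1 count on d 7 (ratio 0.0231, exact 95% interval 5.74e-04 to 0.135, exact permutation P = 0.106).

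TAC3 (ENSBTAG00000021807), the precursor of neurokinin B, was at 31.9 CPM in the d 1 library of calf 1769 and at 4.26 CPM or less in the others. Its log2 change of -1.37 ± 0.68 (SE, exact permutation P = 0.288) was -0.28 without this calf. Between d 0 (3.65 to 11.9 CPM, median 8.51) and d 7 (0.804 to 5.37 CPM, median 3.08), which do not involve the d 1 library, its log2 change was -1.45 ± 0.39 (SE, adjusted P = 0.920 by edgeR).

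**Figure D3:**
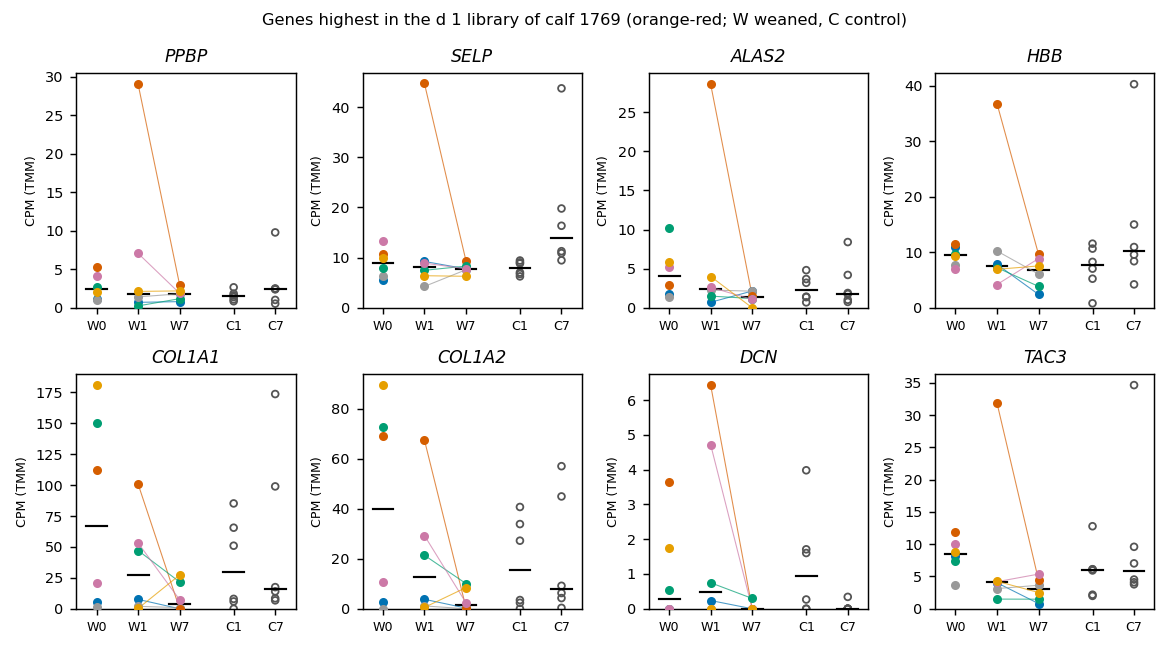
CPM (y axis, scaled by TMM) of 8 genes of platelets (PPBP, SELP), red cell precursors (ALAS2, HBB) and connective tissue (COL1A1, COL1A2, DCN) and of TAC3 by library, with the layout of the plot of genes lower on d 7 and calf 1769 in orange-red. The d 1 library of calf 1769 is the highest of d 1 in all 8 genes, for example 29.0 CPM of PPBP and 28.5 CPM of ALAS2, and the collagens were also high on d 0 in several calves.

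In a further group of genes the medians of d 1 and d 7 were both above that of d 0. FOSB (ENSBTAG00000008182), an immediate early transcription factor, lay at 29.6 to 65.5 CPM on d 1 (median 47.0) and at 19.0 to 52.2 CPM on d 7 (median 38.7), with a log2 change of -0.34 ± 0.23 (SE, P = 0.167 by edgeR, exact permutation P = 0.165). Its d 0 level was 17.9 to 35.9 CPM (median 25.7). FOS (ENSBTAG00000004322), a partner of the same family, lay at 109 to 272 CPM on d 1 (median 158) and at 104 to 195 CPM on d 7 (median 165), against a median of 101 CPM on d 0. In FOSB, 5 of the d 7 libraries (19.0 to 43.2 CPM) lay below 5 of the d 1 libraries (44.7 to 65.5 CPM), whereas in FOS the d 7 values lay within or just below the range of d 1.

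RGS2 (ENSBTAG00000034366), a brake on G-protein signalling and a known glucocorticoid-induced gene, lay at 6.17 to 17.3 CPM on d 1 (median 12.03) and at 7.54 to 21.7 CPM on d 7 (median 13.8). On d 0 the median was 4.49 CPM, and calf 1762 was already at 12.6 CPM. ABCA1 (ENSBTAG00000020661), the pump that exports cholesterol to lipoproteins, which is outside the rule for named genes and was chosen after its values were seen, lay at 86.1 to 222 CPM on d 1 (median 111), at 50.6 to 234 CPM on d 7 (median 95.7) and at 44.6 to 72.7 CPM on d 0 (median 65.2). All d 1 libraries of ABCA1 were above all of d 0, and on d 7 the libraries of calves 1758 and 1770 were the highest.

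The log2 changes from d 0 to d 1 and from d 0 to d 7, which share the d 0 libraries with each other and their later libraries with the comparison above, were 0.85 ± 0.19 and 0.51 ± 0.23 for FOSB, 0.60 ± 0.26 and 0.53 ± 0.23 for FOS, 1.02 ± 0.36 and 1.32 ± 0.36 for RGS2, and 1.13 ± 0.23 and 1.05 ± 0.32 for ABCA1 (SE). None of the 4 passed the test, with adjusted P = 0.423 on d 1 and 0.920 on d 7 by edgeR, but DESeq2 called FOSB (0.87) and ABCA1 (1.15) from d 0 to d 1. For THBS1, GFPT2, TLR7 and IL5RA the log2 change from d 0 to d 1 was 0.90 ± 0.27, 1.30 ± 0.57, 0.70 ± 0.30 and 1.07 ± 0.40 (SE, adjusted P = 0.423 by edgeR). Over all genes, edgeR called 0 of 14038 from d 0 to d 1 (1454 reached 0.05 unadjusted, 10.4%, with 6.02% higher and 4.34% lower, and DESeq2 called 4) and 0 of 14026 from d 0 to d 7 (373 reached 0.05 unadjusted, 2.66%, with 1.72% higher and 0.941% lower, and DESeq2 called 1). With calf as a block, 2 genes were called from d 0 to d 1.

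**Figure D4:**
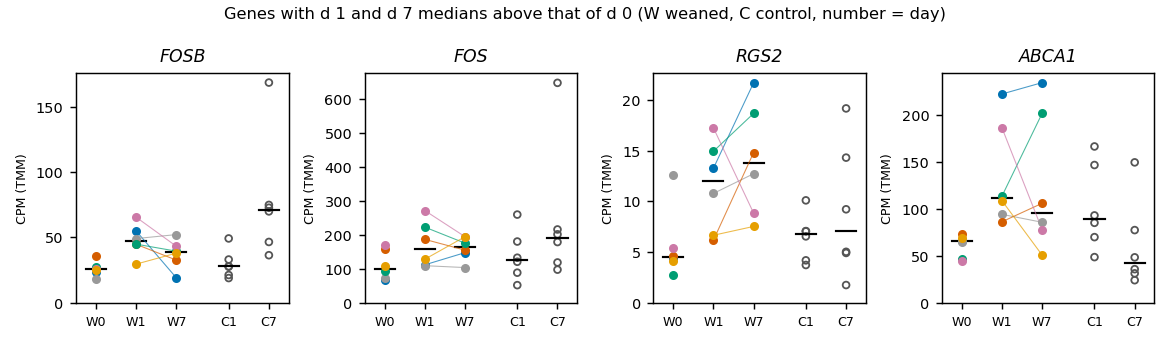
CPM (y axis, scaled by TMM) of FOSB, FOS, RGS2 and ABCA1 by library, with the layout of the plot of genes lower on d 7. In weaned calves the d 7 medians (38.7, 165, 13.8 and 95.7 CPM) and those of d 1 (47.0, 158, 12.03 and 111 CPM) lie above those of d 0 (25.7, 101, 4.49 and 65.2 CPM), and the control calves had their higher median of FOSB on d 7 (71.3 CPM).

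Genes with lower counts had both later medians above that of d 0 too. ITGA2, the α2 chain of a collagen receptor of platelets, had medians of 0.302, 0.924 and 0.932 CPM on d 0, 1 and 7, and KDR, a receptor for vascular endothelial growth factor, had 4.53, 5.37 and 6.31 CPM. TSHB, the β chain of thyrotropin, had 0.137, 1.496 and 0.769 CPM. On the side of lower levels after weaning, HIC1 (ENSBTAG00000025130), a transcriptional repressor outside the rule for named genes and chosen after its values were seen, lay at 22.6 to 62.2 CPM on d 0 (median 38.0), at 11 to 24.8 CPM on d 1 (median 17.7) and at 12.1 to 52.5 CPM on d 7 (median 23.8). It was higher on d 7 than on d 1 in 5 of 6 calves (exact permutation P = 0.216).

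Of the genes with a symbol, 2 were higher and 17 lower on d 7 at an unadjusted p under 0.05 by edgeR. Over all 14152 genes tested these counts were 66 and 80, and 7551 log2 changes were positive and 6601 negative. FABP6 (ENSBTAG00000010632), a bile acid binding protein of the ileum, was higher in 6 of 6 calves, at 0.514 to 2.74 CPM on d 1 (median 2.10) and at 1.88 to 5.05 CPM on d 7 (median 2.81). Its log2 change was 0.81 ± 0.39 (SE, P = 0.0550 by edgeR, exact permutation P = 0.0628), and 3 of the d 7 libraries were above all of d 1. IGF2BP2 (ENSBTAG00000007666), an mRNA-binding protein, was also higher in 6 of 6 calves, with 6 counts on d 1 and 14 on d 7, and the ratio of 2.54 has an exact 95% interval of 0.916 to 8.05 (exact permutation P = 0.0130). PSD2 (ENSBTAG00000000238) had 9 counts against 24 (ratio 2.90, interval 1.30 to 7.09, exact permutation P = 0.0152) and was higher in 5 of 6 calves.

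Close to the limit of detection, PTGES (ENSBTAG00000019453), a synthase of prostaglandin E2, had a median of 0 CPM on d 1 and 0.752 CPM on d 7, and a single d 1 library, that of calf 1809, stood above 0.284 CPM. Its log2 change was 1.67 ± 0.82 (SE, P = 0.0608 by edgeR, exact permutation P = 0.0325). CHRNA2 (ENSBTAG00000002252), a subunit of nicotinic acetylcholine receptors, lay at 0.514 to 1.704 CPM on d 1 and 1.07 to 3.49 CPM on d 7, and its log2 change was 0.84 ± 0.43 (SE, P = 0.0823 in the exact permutation). Of the others with the smallest P on this side, ACOT12 had 4 counts against 16, NODAL 3 against 10, CRYAB 7 against 20 and CDH15 6 against 18.

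The lists of related genes were covered only in part, because symbols exist only for genes the study had selected, and 0 members of any list had an adjusted p under 0.05. Of 56 cytokine and chemokine ligands, 17 could be identified and 16 tested. At an unadjusted p under 0.05, 5 of the 16 were lower on d 7 and 0 higher, against 0.565% and 0.466% over all genes, and the median log2 change was -0.56 against 0.02 over all genes. Among the 605 tested genes with a symbol, from which every list is drawn, 17 were lower and 2 higher, with a median of -0.10. The 5 are CCL24, CCL22, CXCL5, PPBP and CCL2, and in CXCL5, PPBP and CCL2 calf 1769 held most of the d 1 counts. Other ligands had smaller differences between the medians. LIF, a cytokine of the interleukin 6 family, had medians of 12.02 and 15.5 CPM on d 1 and d 7, IL18 had 6.27 and 6.58 CPM, and CCL4 had 14.3 and 15.4 CPM. IL8, the main attractant of neutrophils, had 0.625 CPM on d 0, 1.81 CPM on d 1 and 1.49 CPM on d 7 (medians), with a range of 0.267 to 7.86 CPM on d 1.

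Of 55 cytokine and chemokine receptors, 8 were tested, 4 with higher and 4 with lower values on d 7, and their median log2 change was -0.13. FLT3, a receptor of dendritic cell precursors, lay at 7.38 to 16.2 CPM on d 1 (median 13.2) and at 3.14 to 18.5 CPM on d 7 (median 8.58). IL15RA, which presents interleukin 15 to lymphocytes, lay at 11.8 to 35.5 CPM (median 20.4) and at 20.9 to 41.8 CPM (median 22.1). The log2 change was -0.37 ± 0.36 for FLT3 and 0.42 ± 0.28 for IL15RA (SE, exact permutation P = 0.206 and 0.123).

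Among eosinophil and basophil markers, 8 of 18 were identified and tested, and the median log2 change was -0.32. At an unadjusted p under 0.05, 1 was lower (CCL24, also among the ligands), against 0.565% over all genes and 17 of the 605 with a symbol. Their summed level had medians of 273.5 CPM on d 0, 269 CPM on d 1 and 227 CPM on d 7. ALOX15, the 15-lipoxygenase of eosinophils, lay at 134 to 301 CPM on d 1 (median 168) and at 76.0 to 204 CPM on d 7 (median 116), and its log2 change was -0.44 ± 0.25 (SE, P = 0.113 in the exact permutation). The basophil and mast cell genes FCER1A, MS4A2 and CPA3 had medians of 23.3, 6.01 and 3.40 CPM on d 1 and 23.1, 3.39 and 2.41 CPM on d 7. By summed counts the ratios of d 7 to d 1 were 0.927, 1.07 and 1.38, so MS4A2 and CPA3 were lower by the median only. For platelet markers 8 of 23 were tested, with a median of -0.75, which was -0.24 without calf 1769. At an unadjusted p under 0.05, 3 were lower, against 0.565% over all genes and 17 of the 605 with a symbol. PPBP and CXCL5 are among these 3 and were also counted among the ligands. Stromal genes had a median of -1.80 and -0.85 without this calf (8 and 7 tested).

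Markers of the main leukocyte types were too few to describe the composition of the samples. The paper reports blood counts for a larger set of calves. In weaned calves the neutrophil percentage rose on d 1 and then returned to baseline, lymphocytes did the converse, and platelet number fell on d 1. The part of such shifts in the levels given here was not tested. Of 30 neutrophil markers 3 were identified, and ALPL, PROK2 and AQP9 had medians of 76.4, 4.49 and 5.11 CPM on d 1 and 97.1, 6.55 and 4.22 CPM on d 7. Of 28 T cell markers 3 were identified, of 23 B cell markers 1, of 19 monocyte markers 1 and of 22 markers of cytotoxic and natural killer cells 4. TRAT1 and ICOS, genes of T cell activation, had medians of 40.6 and 11.3 CPM on d 1 and 25.9 and 8.87 CPM on d 7. CTLA4, the remaining T cell marker, went the other way, with 57 counts on d 1 and 59 on d 7 (ratio 1.13, exact permutation P = 0.457). GZMA, a granule protease of cytotoxic cells, had 9.54 and 6.29 CPM, and the highest values of TRAT1 and GZMA on d 7 (102 and 30.8 CPM) were above the highest of d 1 (78.6 CPM) for TRAT1 and below it (32.4 CPM) for GZMA.

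Virus sensors and interferon genes, of which 4 in each list were tested, had medians of -0.22 (Toll-like receptor and NF-κB genes) and -0.12 (interferon-stimulated genes) on the log2 scale. TLR3, a receptor for double-stranded RNA, lay at 30.6 to 68.1 CPM on d 1 (median 33.5) and at 21.7 to 88.7 CPM on d 7 (median 26.7), and DDX58, the cytoplasmic RNA sensor RIG-I, had medians of 92.6 and 80.6 CPM. CXCL10, an interferon-induced chemokine, lay at 3.34 to 20.4 CPM on d 1 and at 2.83 to 7.51 CPM on d 7, and its log2 change was -0.71 ± 0.44 (SE, P = 0.329 in the exact permutation). Of 55 cell cycle genes 10 were tested, 0 had an unadjusted p under 0.05, and the median was -0.03. CDK1, the kinase that drives mitosis, had medians of 6.56 CPM on d 1 and 5.25 CPM on d 7. The highest d 1 value of TLR3 was in calf 1773 and its highest d 7 value in calf 1758, the libraries at the upper end of the first component.

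The genes that the study lists for weaned calves on d 1 against d 0 were chosen on the d 1 libraries used here, so their values are given as a description. Among those with a higher level on d 1, 256 could be tested, and their median log2 changes were 1.28 from d 0 to d 1, -0.35 from d 1 to d 7 and 0.97 from d 0 to d 7 (225 tested on d 7 against d 0). Among the 48 with a lower level on d 1, the same medians were -1.25, 0.62 and -0.65. In control calves, whose libraries had no part in choosing these genes, the medians from d 1 to d 7 were -0.58 (229 tested) for the genes higher on d 1 and 0.14 (47 tested) for those lower. The median change of the first set was thus negative in both treatments. In weaned calves, choosing these genes on the d 1 libraries favours a negative value. In control calves the medians of the study's other lists, some chosen on control libraries, lay at -0.92 to 0.08.

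In control calves, whose libraries are independent of those above, the comparison of d 7 with d 1 also gave 0 genes at an adjusted p under 0.05 among 13825 (smallest 0.389 by edgeR), but 1729 at an unadjusted p under 0.05 (12.5%), of which 293 (2.12%) were higher and 1436 (10.4%) lower on d 7. DESeq2 called 0 and had 1889 at an unadjusted p under 0.05. The edgeR count was 774 with calf as a block, 293 without calf 1755, 381 without calf 1759, 1062 without calf 1789 and 3582 without calf 1763. FOSB lay at 18.9 to 49.2 CPM on d 1 (median 27.8) and at 36.4 to 169 CPM on d 7 (median 71.3), a log2 change of 1.38 ± 0.32 (SE, adjusted P = 0.389 by edgeR). LIF and SELP had control log2 changes of 1.22 ± 0.39 and 1.22 ± 0.35 (SE), and CXCL10 of -1.35 ± 0.55. The d 7 library of control calf 1789 was the highest of its group for SELP (43.7 CPM), HBB (40.2 CPM), ALAS2 (8.398 CPM), TAC3 (34.6 CPM) and PPBP (9.80 CPM), genes that were also highest in the d 1 library of weaned calf 1769, and without calf 1789 the control log2 change of SELP was 0.81. TLR7 had -0.62 ± 0.30 in control and -0.63 ± 0.32 in weaned calves.

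Whether the change between the days differed between treatments was tested over 24 libraries with calf, as labelled, as a term. Of 14809 genes, 0 had an adjusted p under 0.05 (smallest 0.971 by edgeR). At an unadjusted p under 0.05 were 353 (2.38%), of which 146 (0.986%) were more positive and 207 (1.4%) more negative in weaned calves. Without calves 1758 and 1770 the count was 157, without calf 1763 it was 729 (431 more positive), without calf 1773 it was 663 (390 more positive), and without calf as a term it was 353 with 188 more positive. Among the named genes more negative in weaned calves were FOSB, with a difference of log2 changes of -1.67 ± 0.38 (SE) and DAB2 with -1.84 ± 0.56 (adjusted P = 0.971 by edgeR for each). For DAB2 the control median was 6.86 CPM on d 1 and 8.25 CPM on d 7, with a log2 change of 0.33 ± 0.36 (SE). The difference for THBS1 was -0.92 ± 0.41 (SE, adjusted P = 0.971 by edgeR).

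On the more positive side were SELE, the E-selectin that captures leukocytes, with 1.90 ± 0.55 (SE) and CD38, an NAD-consuming ectoenzyme of activated lymphocytes, with 1.00 ± 0.39 (adjusted P = 0.971 by edgeR for each). CD38 had medians of 6.36 CPM on d 1 and 9.09 CPM on d 7 in weaned calves and of 8.62 and 3.98 CPM in control calves. SELE had 3.57 and 3.06 CPM in weaned and 1.96 and 0.570 CPM in control calves.

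**Figure D5:**
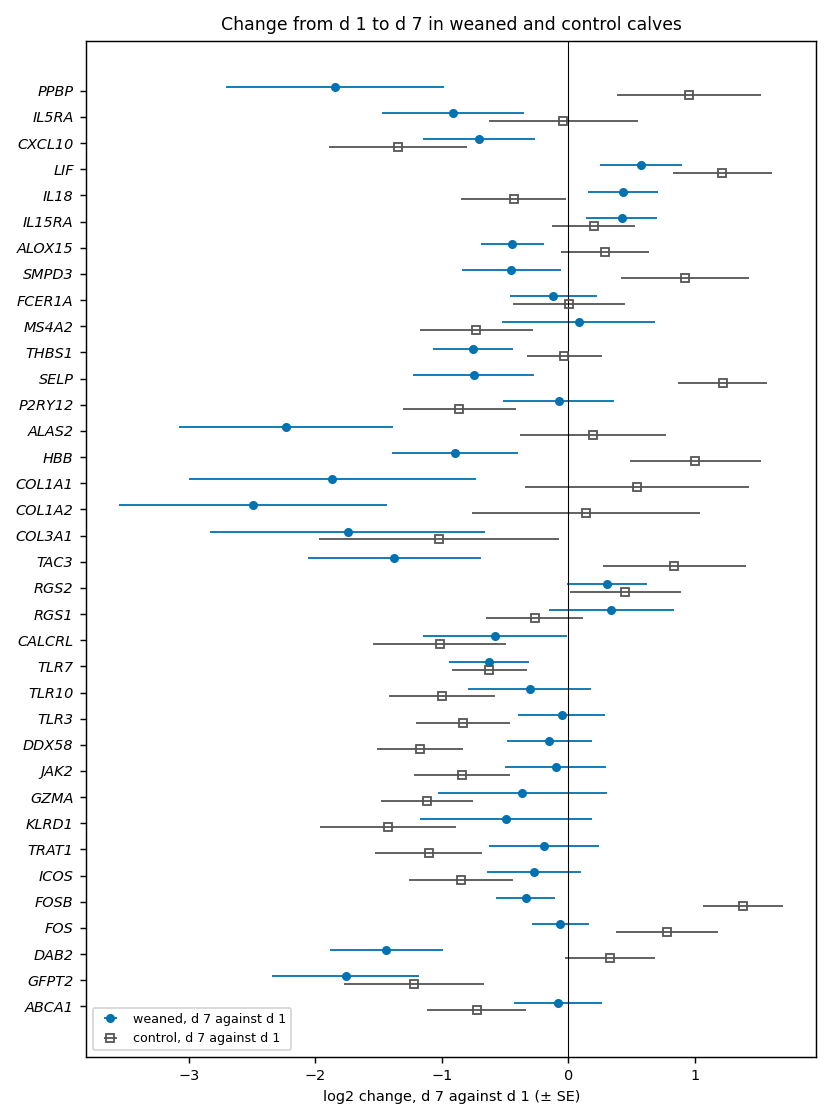
Log2 change from d 1 to d 7 (x axis, points with SE bars from edgeR) of 36 named genes (y axis) in weaned calves (filled circles) and in control calves (open squares). No value passed the test in either treatment. FOSB (-0.34 weaned, 1.38 control) and DAB2 (-1.44 weaned, 0.33 control) lie on opposite sides of 0 in the 2 treatments, whereas TLR7 (-0.63 weaned, -0.62 control) does not.

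Some of the smallest P over all genes belonged to identifiers without a symbol. ENSBTAG00000017869 had 0 counts in every d 7 library and 0.284 to 0.786 CPM on d 1, and ENSBTAG00000007312 lay at 4.54 to 18.9 CPM on d 1 (median 15.2) and 0.314 to 6.17 CPM on d 7 (median 4.05). On the higher side, ENSBTAG00000006052 lay at 1.42 to 2.83 CPM on d 1 (median 2.19) and 2.97 to 6.17 CPM on d 7 (median 3.83), with no overlap between the days, and ENSBTAG00000017861 at 2.31 to 5.60 CPM and 4.55 to 16.96 CPM. Their adjusted p was 1.00 by edgeR, and they were chosen after their values were seen.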

How the data were processed

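Libraries of poly(A)-selected RNA from total leukocytes were read as single reads of 36 bases. The authors aligned them to Btau4.0 allowing no mismatch, discarded reads that aligned in several places, kept 1 read per genomic position and deposited raw counts per Ensembl gene, not normalised. Whether the counting used strand is not given in the sources used here, so overlapping and antisense genes cannot be told apart, and reads of near-identical copies were lost. Removing reads at equal positions lowers the counts of highly expressed genes the most. The submitters' processing notes name CASAVA 1.6, FastQC 0.9.1, Bowtie 0.12.7, HTSeq 0.4.6p2 and edgeR 1.6.12. Of 25669 genes listed, 18206 had a count in some library.

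Counts were compared with the quasi-likelihood F-test of edgeR 4.0.16 (R 4.3.3, TMM), for genes with at least 10 counts over the libraries of a fit, with calls at 0.05 after Benjamini-Hochberg adjustment. Days were compared without pairing over 12 libraries, and treatments by an interaction over 24 libraries with calf as a term. Single genes were compared by exact two-sided permutation of log2(CPM + 1) over 924 splits (smallest possible p 0.00216), not adjusted for the 90 genes described, many of which were chosen for a small p in this comparison. Alternatives were DESeq2 1.42.0, RLE factors, other filters and dispersions, all 24 or 48 libraries in a fit, calf as replicate block, a flowcell restriction, the share of reads kept, and leaving out calves. On simulated counts for d 7 against d 1, 45.5% of 200 genes changed by 2-fold and 97.5% of 200 changed by 4-fold were called (13984 and 13999 genes). The simulation gave every gene the same dispersion, had no first component shared by genes, and placed changes only in genes above a minimum mean level. The real libraries vary more than this, so these shares do not tell how many such changes the test would find in them.

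Same-numbered libraries come from the same calf by the labels, and their deviations from the day means correlated at -0.20 (calf 1773), -0.11 (1758), 0.16 (1770), 0.43 (1769), 0.46 (1762) and 0.87 (1809) over 8236 genes.

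Symbols are those of human orthologs in the study's supplementary tables, and 13 symbols have several identifiers. The genes named are the 10 with a symbol and the smallest p in each direction, 3 in each direction of the interaction, and members of the gene lists. A few items that this rule names are not reported here. Members and lists were chosen with earlier results of these data known. No sequences or positions were matched. Figures were made in Python 3.11.15 with matplotlib 3.10.9.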

Additional observations from a re-analysis of the deposited data

Results flagged for a closer look

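In 186 groups of 6 libraries, the gap between the most extreme library and the next was compared with the range of the group, and 16 (8.602%) passed the critical value of 0.625, where chance gives about 1 in 20. On d 1, calf 1769 was the highest library for GFPT2 (0.769 of the range), LUM (0.806), TAC3 (0.710), SELP (0.692), MYLK (0.712) and the chemokine CCL4 (0.758), and the lowest for PGLYRP1, a peptidoglycan-binding granule protein (0.636). On the same day calf 1773 was the highest for TLR7 (0.783), TLR3 (0.856) and the kinase MAP3K7 (0.636) and on the first component (0.657), and calf 1809 for PTGES (0.705).

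On d 7, calf 1758 was the highest for TLR3 (0.687), calf 1809 the lowest for ALAS2 (0.636), and calves 1770 and 1773 held the only counts of DCN (1.000) and of EDIL3, an integrin ligand (1.000). Both of the latter rest on 1 count.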

How the results depend on the processing

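Of 22 settings for d 7 against d 1, 21 called 0 genes. One common dispersion for all genes (exact test, edgeR) gave 20 calls, among them COL1A2, COL1A1, DCN, ALAS2 and DAB2. Leaving out each calf called 0 to 0 genes in every comparison, with 103 to 834 reaching 0.05 unadjusted here (834 without calf 1758, 103 without 1773). The replicate block changed no call here, and in d 1 against d 0 it called 2 genes, where DESeq2 called 4. DESeq2 called 1 in d 7 against d 0. With the first component as a covariate, chosen after seeing the data and computed from the same counts, 1575 genes were called in control calves, 3053 in d 1 against d 0, 7 in d 7 against d 0 and 0 here. Without the doubted calves 1758 and 1770, 0 were called.

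An exact permutation p under 0.05 was found for 13 of 90 single genes, for 5 with signs permuted within calves (replicate block) and for 8 without calf 1769. The smallest p that signs permuted within 6 calves can give is 0.0313. Only a gene that moved the same way in all 6 calves can therefore pass, so the 13 and the 5 are not alike. Directions reversed for SELP without calf 1769 (0.078, range over calves left out -0.93 to 0.078), and without calves 1758, 1773 and 1809 for ALOX15 (0.060) and FLT3 (0.14). Of 893 alternative values for 43 genes, 880 kept direction and call and 10 passed the threshold, all with the common dispersion. As none of the 43 passed in the main fit, keeping the call adds little to keeping the direction. Depth limits genes of about 1 CPM, for which 1 or 2 counts decide a value. Interaction tests recovered 7.5% of 2-fold changes in simulation with 1 dispersion for all genes and no shared component.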
